A study of Mus musculus with 4 samples.

Results

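Growth factor receptors activate the kinases ERK1 and ERK2, and active ERK induces genes whose products shut the same pathway down. The genes examined here were 9 such feedback inhibitors, taken by symbol from the 55487 genes of the deposited count table: the dual-specificity phosphatases Dusp1, Dusp4, Dusp5 and Dusp6, the Sprouty genes Spry1, Spry2 and Spry4, and the Sprouty-related genes Spred1 and Spred2. They were picked by name and function, not by a threshold on any value, but with earlier results of these data known. Pigment epithelium-derived factor (PEDF) is a secreted glycoprotein of the serpin family that lacks protease inhibitor activity. The study asked which genes change when mouse embryonic fibroblasts (MEFs) are exposed to it. Wild-type MEFs in medium with serum, at passage 2 by the labels and passage 3 by the text of the study, were left untreated or were kept for 24 h with PEDF at 100 ng/mL, a protein made in mammalian cells. Each of 2 independent experiments used MEFs from different embryos and gave 1 control and 1 PEDF library of polyadenylated RNA, so each condition had 2 libraries. Both conditions therefore shared the genotype, the medium and the serum, and growth factors in serum can act on the ERK pathway.

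The phosphatases remove phosphate from both the threonine and the tyrosine of the activation loop of mitogen-activated protein kinases. DUSP5 acts in the nucleus and DUSP6 in the cytoplasm, both with a preference for ERK, whereas the nuclear DUSP1 and DUSP4 also act on other kinases of the family. Sprouty proteins interfere with signaling between growth factor receptors and RAF. SPRED proteins bring the RAS inhibitor neurofibromin to the plasma membrane. In fibroblasts, the transcripts of many of these genes rise soon after growth factors are added and are short-lived, so their levels are often read as an index of ERK output.

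Promoters of 3 phosphatase genes are shown to set Dusp5, the gene with the largest difference between conditions, beside its relatives. Each sequence holds the 150 bases before the RefSeq transcription start (GRCm38.p6), read 5′ to 3′ on the strand of the gene. Capitals mark CArG boxes, the element bound by serum response factor, in Dusp5, and a cAMP response element (TGACGTCA) followed by an E-box (CACGTG) in Dusp1. Dusp6 had none of these 3 motifs. The stretches are chr19:53528995-53529144 on the plus strand for Dusp5, chr17:26508473-26508622 on the minus strand for Dusp1 and chr10:99263081-99263230 on the plus strand for Dusp6.
Dusp5: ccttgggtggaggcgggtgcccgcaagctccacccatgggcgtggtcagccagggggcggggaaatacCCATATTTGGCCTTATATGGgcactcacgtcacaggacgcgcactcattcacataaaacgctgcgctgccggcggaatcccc
Dusp1: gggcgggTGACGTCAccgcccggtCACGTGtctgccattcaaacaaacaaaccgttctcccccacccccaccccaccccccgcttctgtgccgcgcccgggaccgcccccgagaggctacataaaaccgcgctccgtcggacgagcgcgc
Dusp6: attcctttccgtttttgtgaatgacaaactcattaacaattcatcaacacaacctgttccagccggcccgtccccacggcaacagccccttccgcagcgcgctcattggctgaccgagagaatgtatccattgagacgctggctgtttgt

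The 2 CArG boxes of Dusp5 abut and start 82 and 72 bases before the RefSeq transcription start. The annotated Dusp5 gene given below starts at chr19:53529109, inside the stretch shown, so the boxes lie closer to that start. The stretch shown for Dusp1 lies wholly inside its annotated gene. Both strands of the 250 bases before the start were searched in 32851 RefSeq promoters, of which 1.47% held at least 1 CArG box and 0.0183%, 6 promoters, held at least 2. The cAMP response element of Dusp1 starts 143 bases before its start, and 1.55% of all promoters held one. The E-box of Dusp1 starts 126 bases before its start, against a share of 6.02% of all promoters. Promoters were searched for 7 of the 9 genes. The shorter motif TGACG, which is contained in the cAMP response element, was found in Dusp1, Dusp5 and Spred2 and in 17.8% of all promoters, and the GC box GGGCGG in Dusp1, Dusp5, Spry1, Spred1 and Spred2 and in 32.7% of all promoters. The AP-1 site TGANTCA, the ETS site CCGGAA and the TATA box TATAAA were not found in the 7 promoters, and 6.75%, 12% and 12.4% of all promoters held them. These matches describe letters in a window and not bound sites.

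The libraries held 14722848 to 18144640 counts, and each of the 9 genes had 224 to 1508 counts in every library, so all 9 were among the 19384 genes tested (at least 10 counts summed over the 4 libraries). The 10 fibroblast markers, among them Col1a1, Dcn and Vim, had counts in all libraries and summed to 36291 to 45218 CPM (counts per 1000000, with TMM-scaled library sizes). Summed markers of other cell types reached at most 131 CPM for macrophages, 16.7 CPM for endothelium, 56.7 CPM for epithelium and 117 CPM for neural cells. The 6 skeletal muscle markers summed to 439 and 532 CPM in control MEFs and to 497 and 591 CPM in PEDF-treated MEFs. The part of these other cells in the results was not tested, and in bulk RNA fewer cells of a type and less RNA per cell cannot be told apart. The 2 libraries of a condition came from different embryos, so tests without a term for experiment measure the spread between 2 MEF preparations. Fits with that term take this spread out and measure how far the PEDF difference varied between experiments.

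After 24 h of PEDF, the transcripts of the ERK feedback inhibitors were at 0.826 (Dusp5) to 1.06 (Spry1) times their level in untreated MEFs. In edgeR's quasi-likelihood test, 0 of the 9 passed an adjusted p of 0.05, against 0.00516% of all genes tested, which is 1 gene. DESeq2 and limma, also without a block, called 0 of the 9. At an unadjusted p under 0.05, edgeR counted 1 of the 9 as lower with PEDF (Dusp5), against 3.66% of all genes, and DESeq2 and limma counted 0. The 95% intervals of all 9 fold changes (PEDF over control) lay between 0.683 and 1.21, so each lay within a 1.5-fold change in either direction. The log2 fold change was below 0 in 8 of the 9 genes, against 49.8% of all genes, with a median of -0.05 for the 9 genes and 0.001 for all genes tested. For 5 of the 9 genes the 2 control libraries were further apart than the means of the 2 conditions. The share over all genes is not given here.

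**Figure D1:**
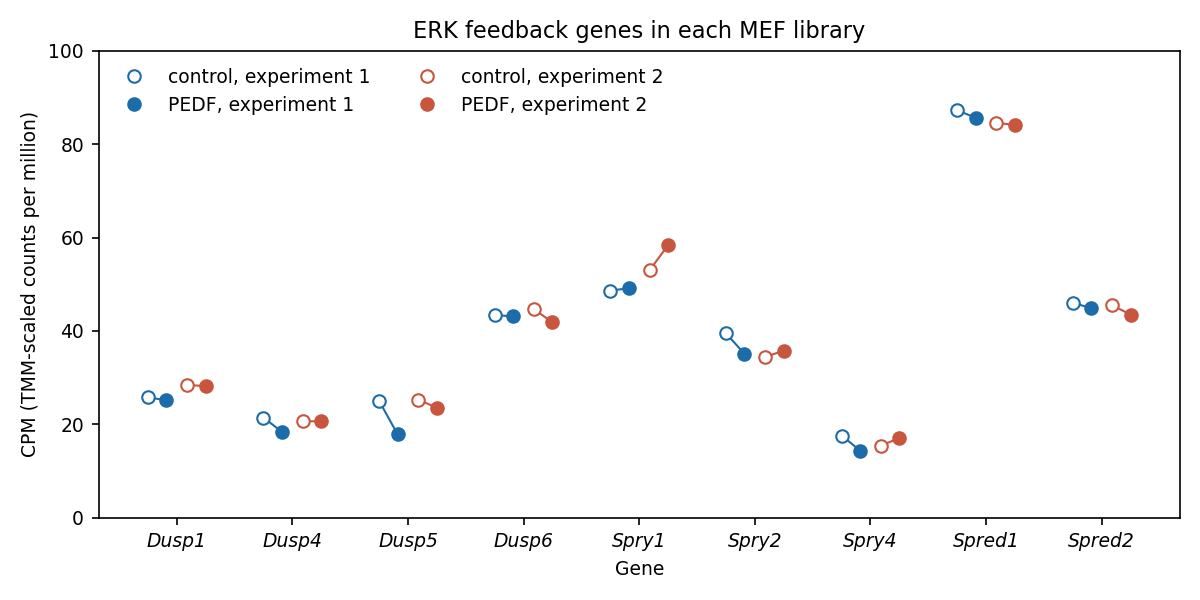
CPM of the 9 ERK feedback genes (y axis, after TMM scaling) in each library, with control as open and PEDF as filled circles, experiment 1 in blue and experiment 2 in red, and lines joining the libraries of an experiment. Spred1 is the highest at 84.1 to 87.3 CPM, and Dusp5 in the PEDF library of experiment 1 (17.9 CPM) is the point furthest below its control in proportion.

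Dusp5, which encodes the nuclear ERK phosphatase, showed the largest difference of the 9. It measured 25.1 CPM in control and 17.9 CPM with PEDF in experiment 1, and 25.3 CPM in control and 23.6 CPM with PEDF in experiment 2, from 370, 278, 451 and 420 counts. Both PEDF libraries were below both control libraries, and the PEDF library of experiment 1 stood well apart from the other three. The means were 25.2 ± 0.150 CPM in control and 20.7 ± 4.02 CPM with PEDF (SD, n = 2), and the log2 fold change in edgeR was -0.28 (SE 0.13, 95% interval -0.55 to -0.003, unadjusted p = 0.0480, adjusted p = 0.719).

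With the experiment as a block, the spread of Dusp5 was smaller but the difference still missed the threshold (log2 fold change -0.28, SE 0.10, edgeR unadjusted p = 0.00697, adjusted p = 0.111). In that fit 0 of the 9 genes had an adjusted p under 0.05, while 3.75% of all genes tested did, and Dusp5 was the 1 gene of the 9 that was lower at an unadjusted p under 0.05, against 7.38% of all genes. With the block and a correction for gene length together, Dusp5 passed the threshold (log2 fold change -0.34, SE 0.10, 95% interval -0.54 to -0.14, edgeR adjusted p = 0.0471) as 1 of the 9, against 1.25% of all genes called lower in that fit. Fits with the block left each gene 1 residual degree of freedom, so the spread came mostly from genes of like abundance. The difference rested on the PEDF library of experiment 1: without it, the log2 fold change of Dusp5 was -0.10 and the edgeR adjusted p 0.999. Over the 8 other settings with all 4 libraries that gave an adjusted p, that of Dusp5 ranged from 0.0471 to 1.00, and DESeq2 with the block gave none for any of the 9 genes.

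**Figure D2:**
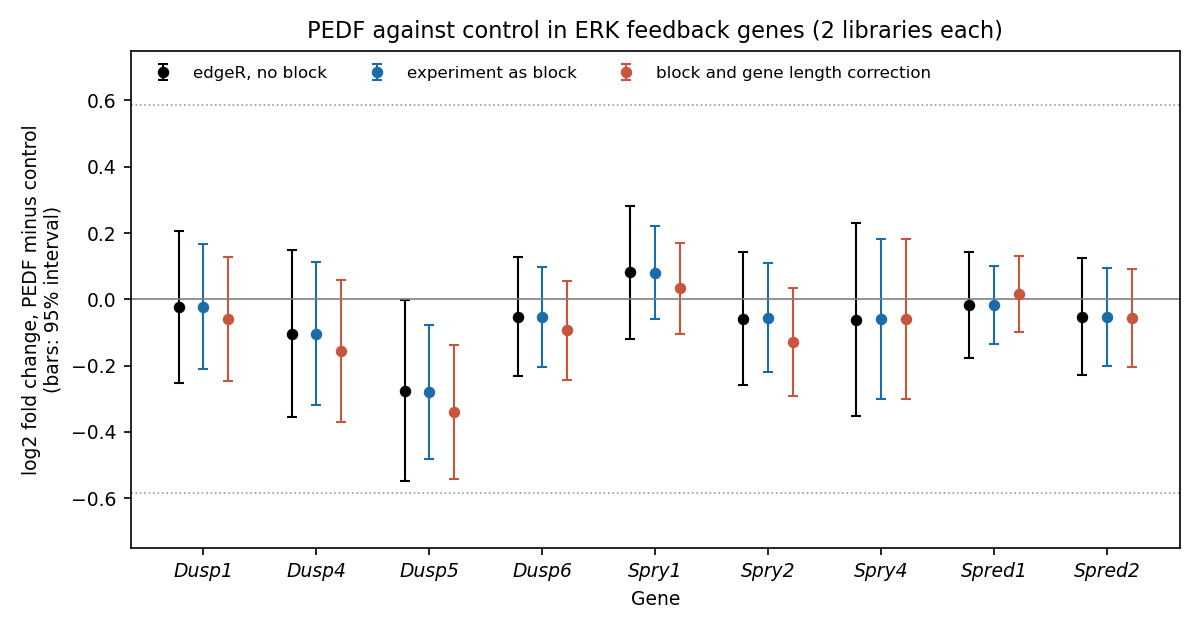
Log2 fold change of PEDF over control (y axis) for each ERK feedback gene in edgeR without a block (black), with the experiment as a block (blue) and with the block and a gene length correction (red), with 95% intervals as bars and dotted lines at a 1.5-fold change. Every interval stays within the dotted lines, and the intervals of Dusp5 lie below 0 in all 3 fits.

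The other 3 phosphatase genes differed less. Dusp6, the cytoplasmic ERK phosphatase, measured 43.4 and 44.6 CPM in control and 43.1 and 41.9 CPM with PEDF (experiments 1 and 2), and the log2 fold change was -0.05 (SE 0.08, edgeR adjusted p = 0.922). Both PEDF libraries of Dusp6 were below both controls, but by less than 1 CPM between the nearest pair. Dusp1, a phosphatase with activity on the stress kinases as well as ERK, measured 25.8 and 28.4 CPM in control and 25.2 and 28.2 CPM with PEDF (log2 fold change -0.02, SE 0.11, edgeR adjusted p = 0.977), so that the groups overlapped and both libraries of experiment 2 were above both of experiment 1. Dusp4, a nuclear phosphatase of ERK and JNK, measured 21.5 and 20.6 CPM in control and 18.4 and 20.7 CPM with PEDF (log2 fold change -0.10, SE 0.12, edgeR adjusted p = 0.889), with overlapping groups and a low value in the PEDF library of experiment 1.

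Among the Sprouty genes, Spry1 was the only one of the 9 with a log2 fold change above 0 in the fit without the block, but it turned to -0.05 when the PEDF library of experiment 2 was left out. With the block and length correction Spred1 was also above 0, at 0.02. Spry1 measured 48.7 and 53.0 CPM in control and 49.2 and 58.4 CPM with PEDF (log2 fold change 0.08, SE 0.09, 95% interval -0.12 to 0.28, edgeR adjusted p = 0.891), and the groups overlapped. Spry2 measured 39.5 and 34.5 CPM in control and 35.1 and 35.8 CPM with PEDF (log2 fold change -0.06, SE 0.09, edgeR adjusted p = 0.922). Spry4 measured 17.6 and 15.4 CPM in control and 14.4 and 17.1 CPM with PEDF (log2 fold change -0.06, SE 0.14, edgeR adjusted p = 0.946). For both Spry2 and Spry4 the control library of experiment 1 was the highest of the 4, and the groups overlapped. The interval of Spry4, from -0.35 to 0.23 on the log2 scale, was the widest of the 9, with the fewest counts behind it (224 to 305 per library).

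The Spred genes had the smallest SE of the 9 without the block (0.0748 and 0.0834), just below that of Dusp6 (0.0844). Spred1 measured 87.3 and 84.5 CPM in control and 85.6 and 84.1 CPM with PEDF, with a log2 fold change of -0.02 (SE 0.07, 95% interval -0.18 to 0.14, edgeR adjusted p = 0.975). The groups of Spred1 overlapped. Spred2 measured 46.1 and 45.5 CPM in control and 44.8 and 43.5 CPM with PEDF, with a log2 fold change of -0.05 (SE 0.08, 95% interval -0.23 to 0.12, edgeR adjusted p = 0.922). Both PEDF libraries of Spred2 were below both controls, with a gap smaller than the difference between the 2 PEDF libraries. Dusp5, Dusp6 and Spred2 were thus the 3 of 9 genes whose groups did not overlap in this direction, against 18.4% of all genes tested.

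Within each experiment there was 1 library per condition, so the differences below carry a 95% interval for counting error only and no test. PEDF was the lower of the pair in both experiments for 5 of the 9 genes (Dusp1, Dusp5, Dusp6, Spred1 and Spred2), against 28.8% of all genes tested, and the higher in both for Spry1. In Dusp5 the log2 ratio of PEDF to control was -0.49 (-0.72 to -0.26) in experiment 1 and -0.10 (-0.30 to 0.09) in experiment 2, folds of 0.713 and 0.932. Dusp4, Spry2 and Spry4 had opposite signs in the 2 experiments, 3 of the 9 genes against 41.1% of all genes. Spry4 moved the furthest of these, from -0.29 (-0.55 to -0.03) in experiment 1 to 0.15 (-0.09 to 0.39) in experiment 2. Spry1 was at 0.01 in experiment 1 and at 0.14 (0.01 to 0.27) in experiment 2. For Dusp1, Dusp6, Spred1 and Spred2 the ratios lay between -0.09 and -0.007 in both experiments.

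**Figure D3:**
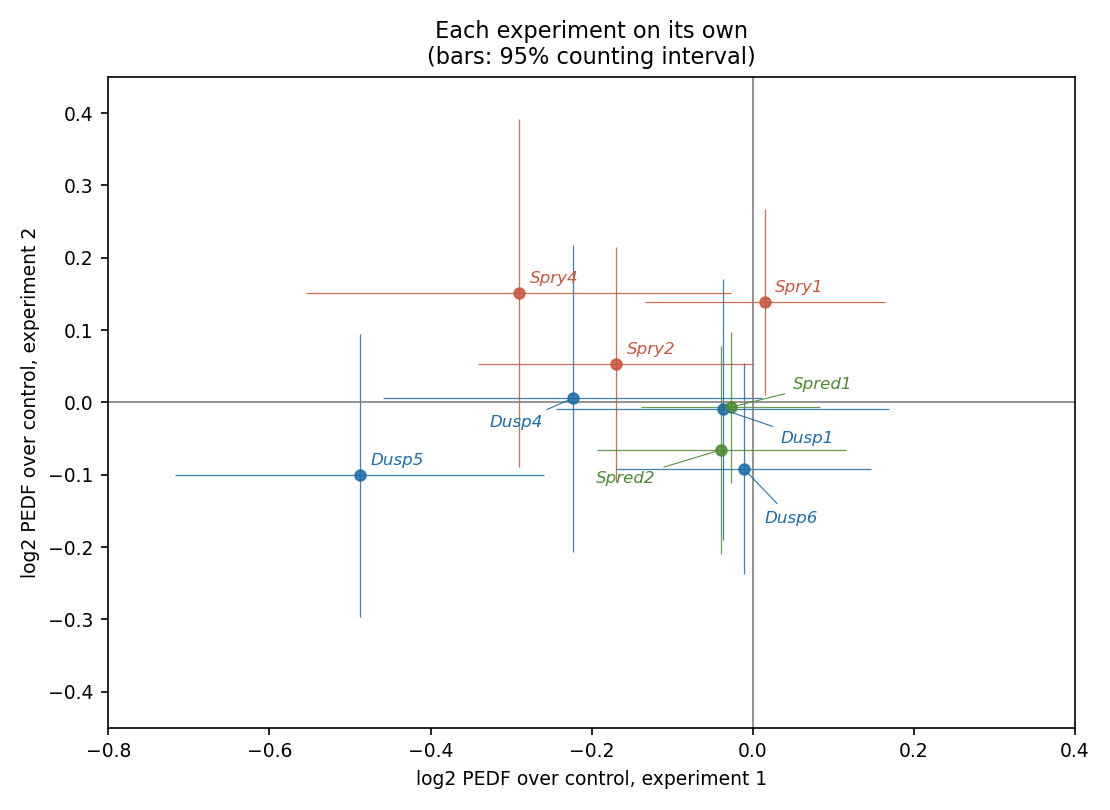
Log2 ratio of PEDF to control in experiment 1 (x axis) against experiment 2 (y axis) for each ERK feedback gene, with phosphatases in blue, Sprouty genes in red, Spred genes in green, and bars for the 95% counting interval. Dusp5 is furthest left at -0.49 in experiment 1 and at -0.10 in experiment 2, and Dusp4, Spry2 and Spry4 lie left of and above the zero lines.

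The MEF preparations were compared in the model that holds treatment and experiment, to set the size of the PEDF differences beside that between embryos. In this comparison edgeR gave 0 of the 9 genes an adjusted p under 0.05, against 4.49% of all genes tested. Spry1 was higher in experiment 2 at an unadjusted p under 0.05, 1 of the 9 genes against 7.53% of all genes. Its difference between experiments was 0.19 on the log2 scale (SE 0.07, 95% interval 0.05 to 0.33, edgeR adjusted p = 0.123), beside 0.08 between conditions. For Dusp5 the difference between experiments was 0.20 (SE 0.10, edgeR adjusted p = 0.364) and for Dusp1 0.15 (SE 0.10, edgeR adjusted p = 0.497), beside -0.28 and -0.02 between conditions. In the other 6 genes it lay between -0.09 and 0.05 on the log2 scale.

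Levels between genes were compared per transcript length, in the TPM values that the authors deposited (transcripts per 1000000). Over the 4 libraries, Spry1 was at 51.0 ± 5.35 TPM (SD) and Spry2 at 49.1 ± 3.06 TPM, and their ranges overlapped. Below them came Dusp6 at 39.1 ± 1.51 TPM, Spred1 at 35.6 ± 0.735 TPM and Spred2 at 27.6 ± 0.882 TPM, each with a range apart from its neighbour above. The ranges of Spred2 and Dusp5 (26.3 ± 4.44 TPM), of Dusp5 and Dusp1 (23.0 ± 1.96 TPM) and of Dusp1 and Dusp4 (21.01 ± 1.74 TPM) overlapped. Spry4 was lowest at 9.62 ± 0.998 TPM, apart from the rest. In mean TPM, Spry1 was above 84.6% of the genes tested and Spry4 above 50.9%. The high CPM of Spred1 went with its long transcript, and Spry2, with the shortest exon length, moved up in this order. Dusp5 gave 28.6 and 29.6 TPM in control and 19.8 and 27.4 TPM with PEDF.

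**Figure D4:**
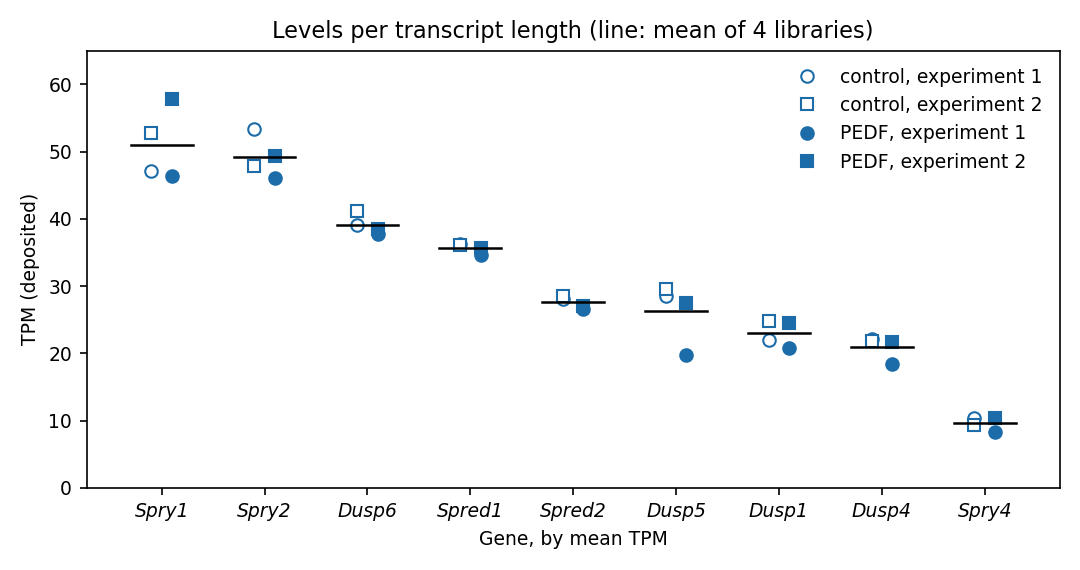
Deposited TPM (y axis) of the ERK feedback genes in order of their mean, with control as open and PEDF as filled symbols, experiment 1 as circles, experiment 2 as squares and the mean of the 4 libraries as a line. Levels run from 51.0 TPM for Spry1 to 9.62 TPM for Spry4, and the PEDF library of experiment 1 lies apart in Dusp5 at 19.8 TPM.

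The 9 genes lie on 9 different chromosomes. In GRCm38 coordinates, Dusp1 (ENSMUSG00000024190) is at chr17:26505590-26562128 on the minus strand, Dusp4 (ENSMUSG00000031530) at chr8:34807297-34819894 on the plus strand, Dusp5 (ENSMUSG00000034765) at chr19:53529109-53542431 on the plus strand and Dusp6 (ENSMUSG00000019960) at chr10:99263231-99267489 on the plus strand. Spry1 (ENSMUSG00000037211) is at chr3:37639947-37644598 on the plus strand, Spry2 (ENSMUSG00000022114) at chr14:105891947-105896819 on the minus strand and Spry4 (ENSMUSG00000024427) at chr18:38586247-38601415 on the minus strand. Spred1 (ENSMUSG00000027351) is at chr2:117121374-117182279 and Spred2 (ENSMUSG00000045671) at chr11:19924375-20024026, both on the plus strand. Their summed exon lengths ranged from 2087 bp for Spry2 to 6784 bp for Spred1.

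Some of these gene models share sequence with others on the opposite strand. The transcript Gm50394 overlaps 547 bp, 22.1%, of the Dusp5 exons and had 69 and 63 counts in control and 54 and 59 with PEDF. The transcript Gm42922 overlaps 710 bp, 24.4%, of the Spry1 exons, with 54 and 80 counts in control and 66 and 70 with PEDF. The library kit keeps strand, but the strand setting of the counting is not given in the sources used here, so the counts of Dusp5 and Spry1 are uncertain by reads of these partners. Dusp1 shares 11 bp with Ergic1. One annotated Dusp1 transcript spans 56538 bp, against 2930 and 2882 bp for the short coding forms, and counts per gene do not separate them.

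The other genes of the 3 families were described in the same way. Of 8 such genes 7 were tested, 0 had an adjusted p or an unadjusted p under 0.05 in edgeR without the block or with the block alone, and without the block DESeq2 and limma called 0. With the block and length correction, 1 of the 7, Dusp9, was lower at an unadjusted p under 0.05 (log2 fold change -0.21, SE 0.10, edgeR adjusted p = 0.391), against 6.03% of all genes. Their median log2 fold change without the block was -0.13. Dusp7, a cytoplasmic ERK phosphatase, was the highest of them at 54.2 TPM (log2 fold change -0.05, SE 0.08). Dusp9, Dusp16 and Spred3 were at -0.16, -0.16 and -0.15, Dusp8 was at -0.13 and Dusp10 at 0.05 on the log2 scale. Dusp2, an immune-cell phosphatase, had 6 and 10 counts in control and 13 and 24 with PEDF (log2 fold change 1.16, SE 0.57, edgeR adjusted p = 0.731). Spry3 had 0 counts in every library, which allows up to 0.203 CPM (3 counts) in the shallowest library. Spred3 differed between the MEF preparations (experiment 2 minus experiment 1 0.34 on the log2 scale, SE 0.10, edgeR adjusted p = 0.0154).

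Around the feedback inhibitors, 7 lists with 78 genes of the pathway (these 8 relatives included) held 77 genes that were tested. Without the block, edgeR called 0 of the 77, as did DESeq2 and limma, and at an unadjusted p under 0.05 it counted 6 as lower and 1 as higher, against the 3.66% of all genes given above and 3.22%. With the block it called 5 of the 77 lower with PEDF and 0 higher, against 2.07% and 1.67% of all genes, and 50 of the 77 had a log2 fold change below 0, against 49.6%. With the length correction added, 4 of the 77 were called lower, against 1.25% of all genes, and 45 were below 0, against 51%. DESeq2 with the same block gave an adjusted p to 17 of the 77 and called 1. Among growth factor receptors (2 of 8 called), Pdgfrb, the PDGF receptor β, measured 440 and 546 CPM in control and 395 and 451 CPM with PEDF (log2 fold change with the block -0.22, SE 0.04, edgeR adjusted p = 0.000125). Igf1r, the insulin-like growth factor 1 receptor, measured 156 and 174 CPM in control and 130 and 157 CPM with PEDF (-0.20, SE 0.05, edgeR adjusted p = 0.00513). PEDF was the lower of the pair in both experiments for these receptors, although their groups overlapped across experiments.

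Among the other transcriptional targets of ERK (2 of 12 called), Myc, a transcription factor of growth, measured 53.1 and 64.4 CPM in control and 45.8 and 52.2 CPM with PEDF (log2 fold change with the block -0.26, SE 0.07, edgeR adjusted p = 0.0107), and its groups did not overlap. Epha2, an ephrin receptor, measured 82.4 and 100.1 CPM in control and 73.5 and 84.8 CPM with PEDF (-0.21, SE 0.06, edgeR adjusted p = 0.0216), with overlapping groups but the lower value with PEDF in both experiments. Among the other inhibitors (1 of 12 called), the ubiquitin ligase gene Cbl measured 66.3 and 69.4 CPM in control and 58.2 and 58.5 CPM with PEDF (-0.22, SE 0.07, edgeR adjusted p = 0.0313), and its groups did not overlap either. The edgeR adjusted p of these 5 genes without the block was 0.696 to 0.719. With the gene length correction added, Myc, Epha2 and Pdgfrb were still called lower, Cbl and Igf1r were not (edgeR adjusted p = 0.432 and 0.581), and Srf, the serum response factor gene of the immediate early list, was called at -0.21 (SE 0.06, edgeR adjusted p = 0.0398). Myc, Epha2, Pdgfrb and Igf1r were also higher in experiment 2 than in experiment 1, by 0.21 to 0.25 on the log2 scale (edgeR adjusted p from 2.71e-06 to 0.0251).

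The ERK cascade itself had 0 of 18 genes called by edgeR with or without the block (at an unadjusted p under 0.05, 1 higher without the block, against 3.22% of all genes, and 3 lower and 2 higher with it, against 7.38% and 7.18% of all genes), and a median log2 fold change of 0.00. Shc1, an adaptor of growth factor receptors, was at 0.04 and Ptpn11, the phosphatase SHP2 that activates the RAS pathway, at -0.03 on the log2 scale. Of the 14 immediate early genes edgeR called 0 without the block (1 lower at an unadjusted p under 0.05, against 3.66% of all genes) and 0 with the block alone (3 lower and 1 higher, against 7.38% and 7.18%). With the length correction added, 1 of them, Srf, was called lower, against 1.25% of all genes, and 12 of the 14 had a log2 fold change below 0, against 51%. Without that correction 8 of the 14 were below 0, with the block (against 49.6% of all genes) and without it (against 49.8%). Without the block the transcription factor genes Jun and Egr1 were at -0.03 and -0.05. The p38 and JNK kinases had 0 of 6 called and 0 at an unadjusted p under 0.05, with Mapk14 at -0.06 and Mapk9 at -0.10. Without the block, the median log2 fold change was -0.11 for the receptors, -0.04 for the other targets and for the immediate early genes, and -0.03 for the other inhibitors and for the kinases, beside -0.05 for the 9 feedback genes. With the block and length correction, the medians were -0.02 for the receptors (4 of 8 below 0, from 7 of 8 without the block), -0.07 for the other targets, -0.06 for the immediate early genes, -0.002 for the other inhibitors, -0.02 for the kinases, 0.02 for the cascade and -0.06 for the 9 feedback genes.

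**Figure D5:**
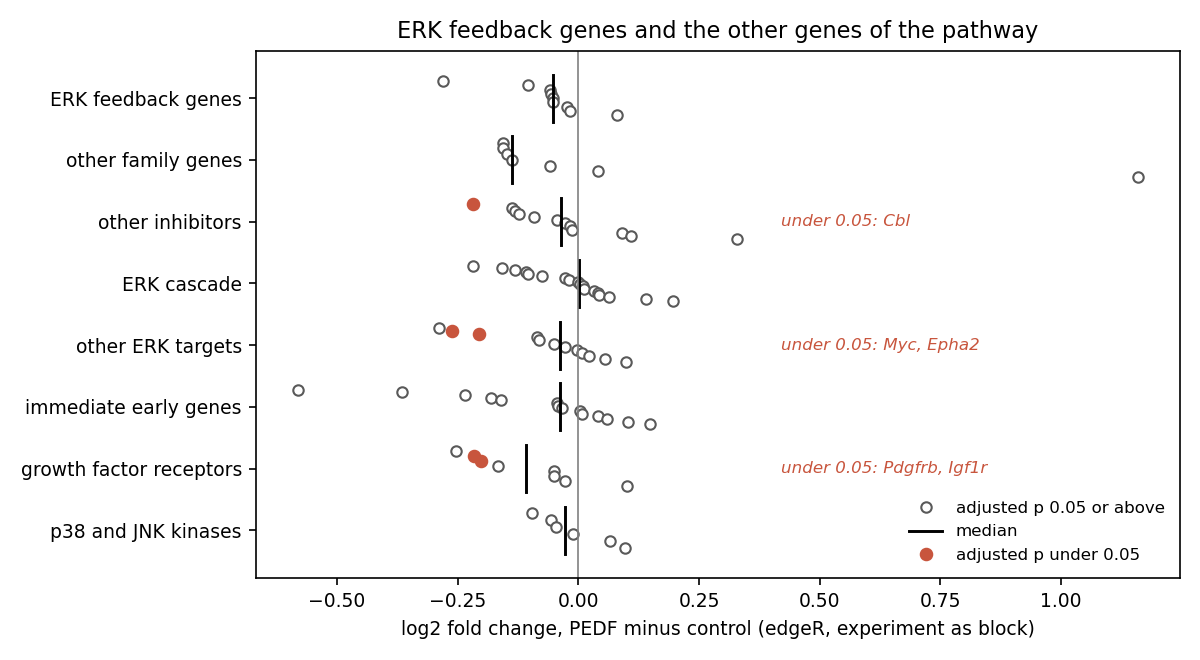
Log2 fold change of PEDF over control in edgeR with the experiment as a block (x axis) for each gene of the ERK feedback genes and of the 7 other lists (y axis), with genes at an adjusted p under 0.05 filled in red and the list median as a black line. The 5 filled genes lie between -0.26 and -0.20, none is an ERK feedback gene, and the single point at the far right is Dusp2 at 1.16.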

How the data were processed

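Wild-type MEF libraries (2 control, 2 PEDF) were grouped by their labels. The authors trimmed paired reads with Trimmomatic 0.38, aligned them with HISAT2 2.1.0 (build mm10, which is GRCm38, per the labels) and counted those mapped to a single place with featureCounts 1.6.3. The raw counts per gene were deposited, as were TPM values of the authors, whose conversion is not described in the sources used here. Counting discards reads shared by near-identical genes, and TPM depends on the gene length used.

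The test was edgeR 4.0.16 in R 4.3.3 (TMM factors, robust quasi-likelihood test, Benjamini-Hochberg adjustment), over all 19384 genes with at least 10 counts in total, without a block because the methods name no covariate. Each SE was the size of the log2 fold change divided by the root of F. Depth was 14722848 to 18144640 counts per library, and counting intervals (95%, exact binomial) cover counting error only. Because the labels name different embryos for each experiment, experiment was also fitted as a block. Over 10722 genes the experiment difference in control correlated with that in PEDF (r = 0.423; genes are not independent replicates). The length correction used splines with 5 degrees of freedom on exon length in GENCODE M21 (19363 genes). Before it, the log2 PEDF difference had a slope per doubling of exon length of -0.040 in experiment 1 and -0.056 in experiment 2 (10720 genes). Alternatives were RLE factors, no filter, filterByExpr, DESeq2 1.42.0 with and without the block, limma 3.58.1 on log2(TPM + 1) and log2(TPM + 0.1), and each library left out. Tests were checked on simulated data.

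The 9 genes and the lists were chosen with earlier results of these data known. Named genes were the 9, all of their relatives, and from each other list the genes with an adjusted p under 0.05 with or without the block, or otherwise the 2 with the highest mean count. Srf was named outside this rule, after its values were seen, as were genes of the marker lists. Promoters came from RefSeq (GRCm38.p6), 250 bases before the start, of which 150 are shown. Of the 9 genes 7 were used there, and Dusp4 and Spry4 were not analysed.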

Additional observations from a re-analysis of the deposited data

Results flagged for a closer look

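For 3 of the 9 ERK feedback genes the PEDF library was below its control in experiment 1 and above it in experiment 2. The log2 ratios of PEDF to control in experiments 1 and 2 were -0.22 and 0.0056 for Dusp4, -0.17 and 0.052 for Spry2, and -0.29 and 0.15 for Spry4. With 1 library per condition in each experiment, the difference between the experiments was not tested.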

How the results depend on the processing

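The number of genes called by edgeR, 1 over all genes without a replicate block, rose to 726 with the replicate block (418 with the gene length correction added) and to 106 without a filter, and was 0 with filterByExpr (1187 genes at an unadjusted p under 0.05). DESeq2 called 3 genes and 119 with the block, and limma 0 with either pseudocount (964 and 922 genes at an unadjusted p under 0.05). Leaving out 1 library gave 2 to 205 called genes, with 205 without the control library of experiment 1 and 24 without the PEDF library of experiment 2. Of the 9 ERK feedback genes, 1 (Dusp5, log2 fold change -0.34) was called with the block and length correction and 0 in each other setting that gave an adjusted p, the replicate block alone included; the cause was not tested. DESeq2 with the block gave none of the 9 an adjusted p. Genes called in the pathway lists numbered 5 with the block, 4 with block and length correction, 1 with the block in DESeq2 (17 of the 77 had an adjusted p there) and 0 to 2 with 1 library left out (2 without the control library of experiment 1). Genes called between experiments numbered 870, and 11 without the treatment term. With the length correction, signs turned for Spred1 (0.017) and for Dusp6 between experiments (0.027); the cause was not tested. Of 72 values of the 9 genes over 8 alternatives with an adjusted p, the other 70 kept direction and call, and the 9 of DESeq2 with the block kept direction. With 1 library left out, 7 of 36 values changed sign, and the log2 fold changes were -0.11 to 0.055 for Dusp1, -0.19 to -0.02 for Dusp4, -0.49 to -0.10 for Dusp5, -0.07 to -0.03 for Dusp6 and Spred2, -0.049 to 0.20 for Spry1, -0.16 to 0.039 for Spry2, -0.19 to 0.054 for Spry4 and -0.041 to 0.0050 for Spred1. There the lone library of a condition is assumed to vary like the other condition. With 2 libraries per condition, counts of 224 to 1508 per library limit what could be seen to differences outside the intervals given.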

Other observations

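Since the Dusp5 promoter holds CArG boxes, the other genes with this motif in the 250 bases before the RefSeq start were described, with Dusp5 itself left out, a choice made after the values of Dusp5 were seen. Of 190 such genes that were tested, 52.1% had a log2 fold change below 0, against 49% of the 12784 tested genes with a promoter entry. Without the block, edgeR called 0 of the 190, and at an unadjusted p under 0.05 it counted 7 as lower (3.68%, against 3.8%) and 6 as higher (3.16%, against 3.36%). With the block it called 9 lower with PEDF (4.74%, against 2.32%) and 5 higher (2.63%, against 1.77%). Because the list was chosen with these data in view, the shares were not tested. The only other tested gene with at least 2 CArG boxes was Srf, which encodes the factor that binds the motif, at a log2 fold change of -0.16 without the block (SE 0.08, edgeR adjusted p = 0.722), at -0.16 with it (SE 0.06, edgeR adjusted p = 0.142) and at -0.21 with the block and length correction (SE 0.06, edgeR adjusted p = 0.0398).

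Without the block, edgeR called 0 of the markers of any cell type, and at an unadjusted p under 0.05 it counted 2 fibroblast markers as lower, 1 as higher, and 1 skeletal muscle marker as higher, against 3.66% of all genes lower and 3.22% higher. With the block, the changes in markers went both ways, against the 2.07% of all genes called lower and 1.67% called higher. Of the 10 fibroblast markers, the collagen genes Col1a1 and Col1a2 and the receptor gene Pdgfrb were called lower, and the proteoglycan genes Dcn (0.35, SE 0.06) and Lum (0.34, SE 0.06) higher. Of the 6 skeletal muscle markers, Actc1, cardiac actin (0.28, SE 0.05, edgeR adjusted p = 1.31e-05), and Des, the intermediate filament desmin (0.19, SE 0.06, edgeR adjusted p = 0.0309), were called higher. Of the 6 macrophage markers, the lysozyme gene Lyz2 was called higher (0.39, SE 0.07, edgeR adjusted p = 2.01e-05), from 60.5 CPM in control and 62.6 CPM with PEDF in experiment 1 and from 26.3 and 46.1 CPM in experiment 2, so the difference lay mostly in experiment 2. Of the other macrophage markers, Ptprc, Adgre1 and Csf1r were below 0 (-0.08, -0.02 and -0.14), Cd68 and Cd14 were above 0 (0.15 and 0.22), and none was called. With the length correction added, Des and Col1a2 were no longer called (edgeR adjusted p = 0.106 and 0.811), and the other 6 markers named as called were. Endothelial, epithelial and neural markers had 0 called by edgeR in this fit and 0 at an unadjusted p under 0.05.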
